A study of Homo sapiens with 3 samples.

Results

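SCARNA15, known in the deposited files by its older name ACA45, is a small Cajal body RNA (scaRNA) of the box H/ACA type, and its reads were followed through 3 small RNA libraries of HEK293, a long-established cell line from human embryonic kidney. The members were all records on the ACA45 entry, 1 of 259 snoRNAs with reads. These were 53 records and 195 reads, of 51039 reads in all. The 3 libraries form 1 group with no treatment, numbered 1 to 3 in deposition order, and the labels do not say whether they came from separate cultures, so the spread between them may be technical. Libraries 1, 2 and 3 held 19989, 11958 and 19092 counts on snoRNAs. A record states how long a read is, where in the RNA it starts and ends, and how many raw reads it stands for.

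Box H/ACA RNAs fold into a pair of hairpins joined by a hinge, with an H box in the hinge and an ACA box near the 3′ end, and guide the change of uridine to pseudouridine. ScaRNAs of this type act in Cajal bodies on the RNAs of the spliceosome. Some H/ACA hairpins resemble the precursors of microRNAs (miRNAs), which the nuclease Dicer cuts on the loop side to leave a short duplex with 3′ overhangs. ACA45 is known from earlier work in HEK293 cells as an RNA that Dicer cuts into small RNAs bound by Argonaute proteins. The libraries here hold no change of Dicer, so its part in these reads cannot be tested with them.

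The SCARNA15 gene lies at chr15:82755945-82756071 on the plus strand (GRCh38, GENCODE 29). It is 127 nt long and sits in an intron of every overlapping transcript of its host gene SNHG21, inside an exon of a retained-intron transcript of AC105339.2, and antisense to the 3′ UTR of FSD2. Its 195 reads all ran in the sense direction of the scaRNA. Its short reads came from 2 places, and the sequences below, read from the GENCODE transcript with U for T, are the fragments with the most reads at each place. Capitals mark bases 2 to 8 of each fragment, the seed by which an miRNA would pair with its targets.
SCARNA15 65-86: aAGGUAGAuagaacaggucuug
SCARNA15 66-86: aGGUAGAUagaacaggucuug
SCARNA15 65-87: aAGGUAGAuagaacaggucuugu
SCARNA15 104-125: aGACCUACuuaucuaccaacag
SCARNA15 104-126: aGACCUACuuaucuaccaacagc

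The fragment at positions 65 to 86 (chr15:82756009-82756030) had 7, 65 and 12 reads in libraries 1, 2 and 3. It led in every library. The fragment at 66 to 86 (chr15:82756010-82756030) had 2, 27 and 5 reads, and the one at 65 to 87 (chr15:82756009-82756031) had 3, 15 and 0 reads. On the other side of the hairpin the fragment at 104 to 125 (chr15:82756048-82756069) had 2, 14 and 1 reads. Its longer form at 104 to 126 (chr15:82756048-82756070) had 2, 7 and 4 reads. These 5 fragments were among the 9 with at least 3 reads over the libraries, of 23 distinct fragments in all. Among the 883 distinct fragments of 20 to 24 nt on any snoRNA, the one at 65 to 86 ranked 2 with 84 reads, behind a fragment of SNORA22 with 107. Library 2 gave 65 of the 84 reads, and without it the fragment had 19 reads and ranked 3 of 652, behind SNORD14A and SNORA22. Without library 3 it ranked 1 of 659, with 72 reads.

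The RNA was folded with RNAfold to see where these fragments lie. The predicted fold had a first hairpin from position 3 to 56 and a second from 67 to 120, with 18 base pairs and a minimum free energy of -43.4 kcal/mol for the whole RNA. The motif ANANNA of the H box, in which N is any base, was found once between the hairpins, at 58 to 63, and ACA stood 3 nt before the 3′ end, at 122 to 124. On the sense strand of 174 H/ACA snoRNA and scaRNA transcripts of GENCODE 29, 97.7% held ANANNA somewhere and 72.4% held ACA 3 nt before the end. The fragment at 65 to 86 lay on the 5′ arm of the second hairpin and the one at 104 to 125 on its 3′ arm, with 17 nt of loop and stem between them. Of the 22 bases of the 5′ arm fragment, 15 were paired in the prediction with bases of the 3′ arm fragment. Position 104 was paired with position 84, so the 5′ arm fragment, which ends at 86, reached 2 nt past the base paired with the start of the 3′ arm fragment, a 3′ overhang on the loop side. On the base side the 5′ arm fragment began 2 nt outside the outermost pair and the 3′ arm fragment ended 5 nt outside it, a 3′ excess of 3 nt. The 3′ arm fragment at 104 to 125 thus includes the ACA box.

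**Figure D1:**
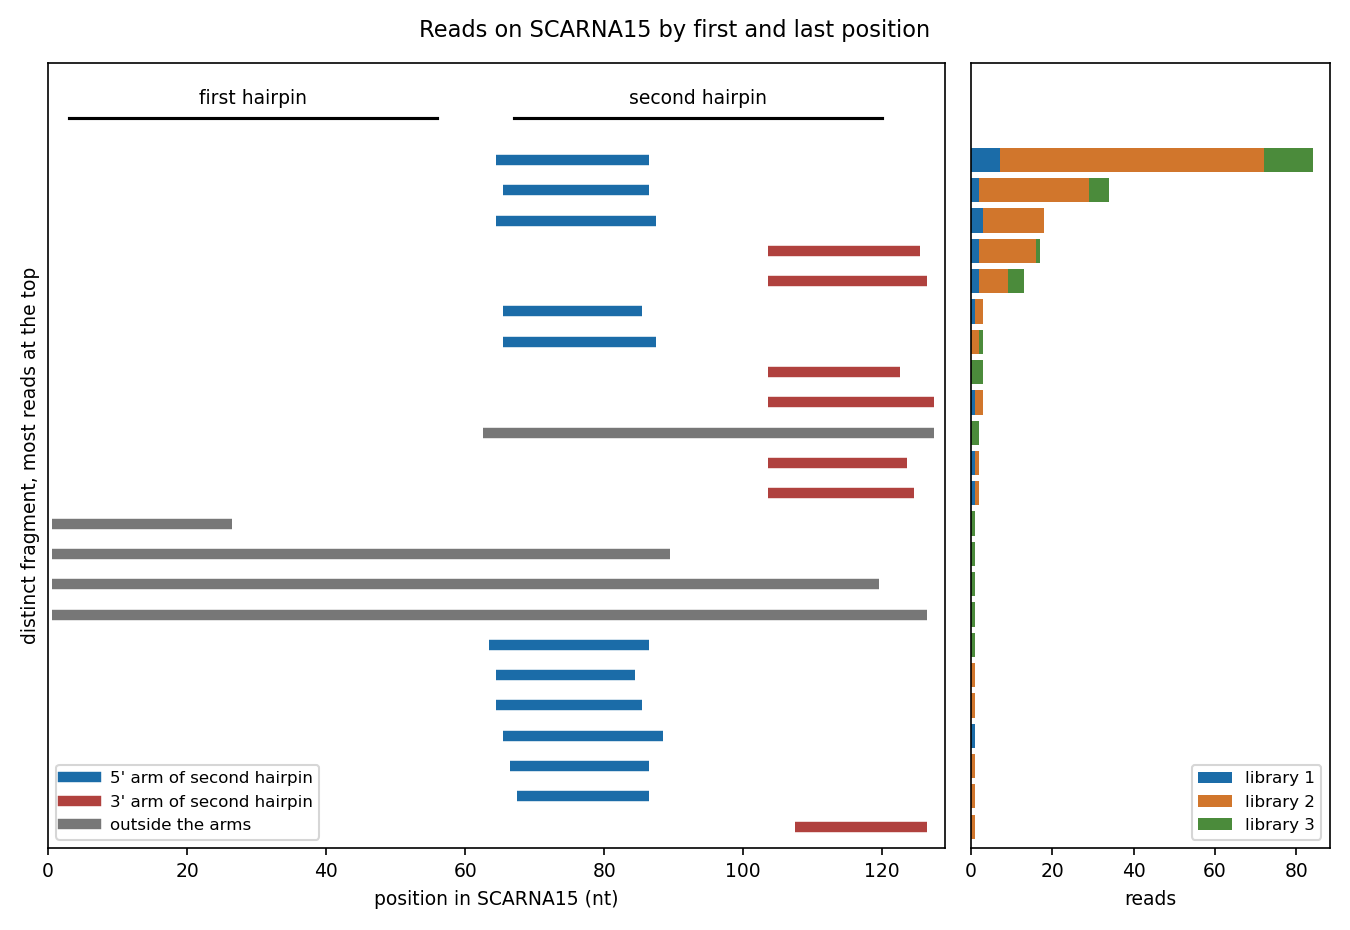
Left, each of the 23 distinct SCARNA15 fragments as a line from its first to its last position (nt), coloured by arm, below the 2 predicted hairpins. Right, its reads in libraries 1 to 3 as stacked bars. Short fragments sit on the 2 arms of the second hairpin, with 84 reads for the fragment at 65 to 86.

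A read of up to 30 nt was assigned to an arm when its midpoint lay inside that arm's leading fragment. The 5′ arm had 14, 115 and 19 reads and the 3′ arm had 7, 26 and 8 reads in libraries 1, 2 and 3. The 5′ arm was the higher in every library. As shares of SCARNA15 reads, the 5′ arm made up 66.7%, 81.6% and 57.6%, with exact 95% intervals of 43.0% to 85.4%, 74.2% to 87.6% and 39.2% to 74.5%. The 3′ arm made up 33.3%, 18.4% and 24.2% (14.6% to 57.0%, 12.4% to 25.8% and 11.1% to 42.3%). The log2 ratio of 5′ to 3′ arm reads, with a pseudocount of 0.5, was 1.42 ± 0.62 (SD, n = 3), a 2.68-fold excess that ranged from 1.93-fold to 4.36-fold over libraries. It was positive in 3 of 3 libraries, and an exact permutation test by sign flips (two-sided) gave p = 0.25, below which no result from 3 libraries can fall (0.5 after Benjamini-Hochberg adjustment over the 2 such tests run). The arms were chosen by read number in these same libraries, and the numerator was the arm with the more abundant leading fragment. A positive sign was thus favoured in advance, and neither the 3 of 3 nor the p-value is support for the 5′ arm excess. When each record counted once, whatever its reads, the log2 ratio was 0.45 (exact sign-flip p = 0.5). The 5′ arm intervals of libraries 2 and 3 met only between 74.2% and 74.5%. These shares also count reads outside the arms, 6 of 33 in library 3, so the intervals do not compare arm use alone. A difference in arm use between libraries was not tested.

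The ends of the reads differed in how sharply they were set. The commonest position of each end was taken from the reads of the 3 libraries pooled. On the 5′ arm the commonest last position, 86, was held by 9 of 14, 94 of 115 and 18 of 19 reads, or 64.3%, 81.7% and 94.7%. The commonest first position of that arm, 65, was held by 10 of 14, 82 of 115 and 12 of 19 reads, or 71.4%, 71.3% and 63.2%. First minus last position gave differences of 7.14, -10.4 and -31.6 percentage points, which did not go one way. Their mean was -11.6 ± 19 percentage points (SD, n = 3; exact sign-flip p = 0.5, 0.5 after adjustment), -1.65 without library 3 and -21.0 without library 1. Both ends were held within 1 nt by nearly all reads of the arm, with means of 99.4% for the first and 97.3% for the last position.

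Most of the spread at the start of the 5′ arm came from position 66. Reads that began there made up 4 of 14, 31 of 115 and 6 of 19 reads of the arm, or 28.6%, 26.96% and 31.6%, with exact 95% intervals of 8.39% to 58.1%, 19.1% to 36.0% and 12.6% to 56.6%. The share was 29.04% ± 2.3 (SD, n = 3). The intervals are far wider than this spread, so the closeness of the 3 values does not show that the share is stable. A start at 66 in place of 65 shifts the seed from AGGUAGA to GGUAGAU, as the capitals above show. Among 2370 mature human miRNAs of RefSeq (GRCh38.p14), AGGUAGA was the seed of 2, hsa-miR-3927-3p and hsa-miR-6831-5p, GGUAGAU of 0, and GACCUAC, the seed of the 3′ arm, of 0. In the sequences of the 2 miRNAs the shared seed is again in capitals.
hsa-miR-3927-3p: cAGGUAGAuauuugauaggcau
hsa-miR-6831-5p: uAGGUAGAgugugaggaggagguc

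On the 3′ arm the first position was nearly fixed. Position 104 began 7 of 7, 25 of 26 and 8 of 8 reads, or 100%, 96.2% and 100%, with exact 95% intervals of 59.0% to 100%, 80.4% to 99.9% and 63.1% to 100%. The remaining read began at 108. The last position of the same reads ran from 122 to 127, the final base of the RNA. The commonest, 125, was held by 2 of 7, 14 of 26 and 1 of 8 reads, or 28.6%, 53.8% and 12.5%, and position 126 by 2, 8 and 4 reads. In library 3, position 126 was the more frequent, and 3 of its 8 reads ended at 122.

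Taken by their place in the hairpin rather than by direction, the ends that face the loop (last position of the 5′ arm, first of the 3′ arm) were more often at their commonest position than the ends that face the base of the stem. The excess was 19.0, 16.3 and 48.1 percentage points in libraries 1, 2 and 3, with a mean of 27.8 ± 18 (SD, n = 3) and the same direction in 3 of 3 libraries. Without library 3 it was 17.7 percentage points, and 6.0 when positions within 1 nt of the commonest counted as well. The commonest positions were those of the pooled reads. In library 3 the 3′ arm last position scored was thus 125, with 1 of 8 reads, although 126 had 4, which raises its excess. The base-side end of the 3′ arm also lies at 122 to 127, up to the final base of the RNA. This grouping of the ends was chosen after their values were seen, so it is a description with no test. In library 1 the 5′ arm by itself went the other way, with 9 of 14 reads at the commonest last position and 10 of 14 at the commonest first position, a difference of 1 read.

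**Figure D2:**
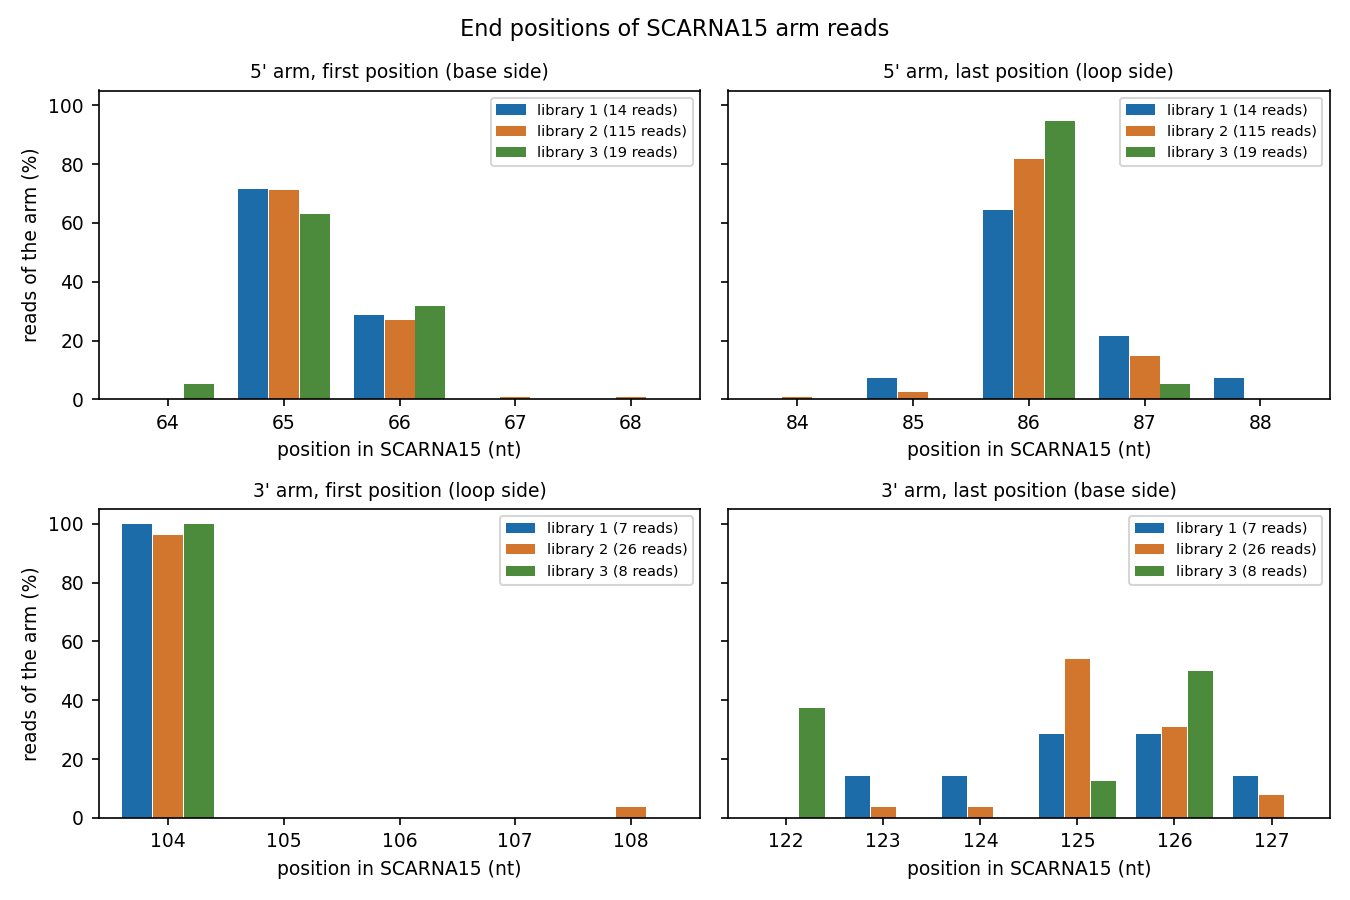
Share of arm reads (%) by first and last position (nt) in libraries 1 to 3, for the 5′ arm (above) and the 3′ arm (below). Last positions of the 5′ arm gather at 86 and first positions of the 3′ arm at 104, while last positions of the 3′ arm spread from 122 to 127.

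Reads outside the arms were seen in library 3. It had 6 of 33 reads there, or 18.2% (exact 95% interval 6.98% to 35.5%), while libraries 1 and 2 had 0 of 21 and 0 of 141 reads. Those allow shares of up to 14.3% and 2.13% by the limit of 3 counts, and up to 16.1% and 2.58% by the exact 95% interval. The mean share was 6.06% ± 10 (SD, n = 3). It was 0% without library 3 and 9.09% without either of the others. Of the 6 reads, 2 ran from 63 to 127 and so covered the second hairpin and the 3′ end of the RNA, starting 2 nt before the 5′ arm fragment. Another ran from 1 to 126 and another from 1 to 119, close to the whole RNA, and the others ran from 1 to 89 and from 1 to 26. The 2 hairpin reads and the read at 1 to 119 had 1 base more than their span, and were the 3 SCARNA15 reads whose length and span differed, of 195. The read at 1 to 26 was the only one of up to 30 nt in the first hairpin, whose 5′ side it covers. Among all reads of other snoRNAs, those over 30 nt made up 92.2%, 80.8% and 91.6% in libraries 1, 2 and 3. Why SCARNA15 reads outside the arms were seen only in library 3 was not tested.

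The lengths of SCARNA15 reads centred on 22 nt in each library, with 9 of 21, 81 of 141 and 14 of 33 reads, or 42.9%, 57.4% and 42.4%. Reads of 20 to 24 nt, the size of miRNAs, were 21 of 21, 139 of 141 and 24 of 33 (100%, 98.6% and 72.7%, with exact 95% intervals of 83.9% to 100%, 94.97% to 99.8% and 54.5% to 86.7%). In the pool of all other snoRNAs the shares were 2.56%, 5.40% and 2.97%, and in the pool of other scaRNAs 9.23%, 18.5% and 6.38%. SCARNA15 stood above both in every library and its intervals did not overlap theirs.

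**Figure D3:**
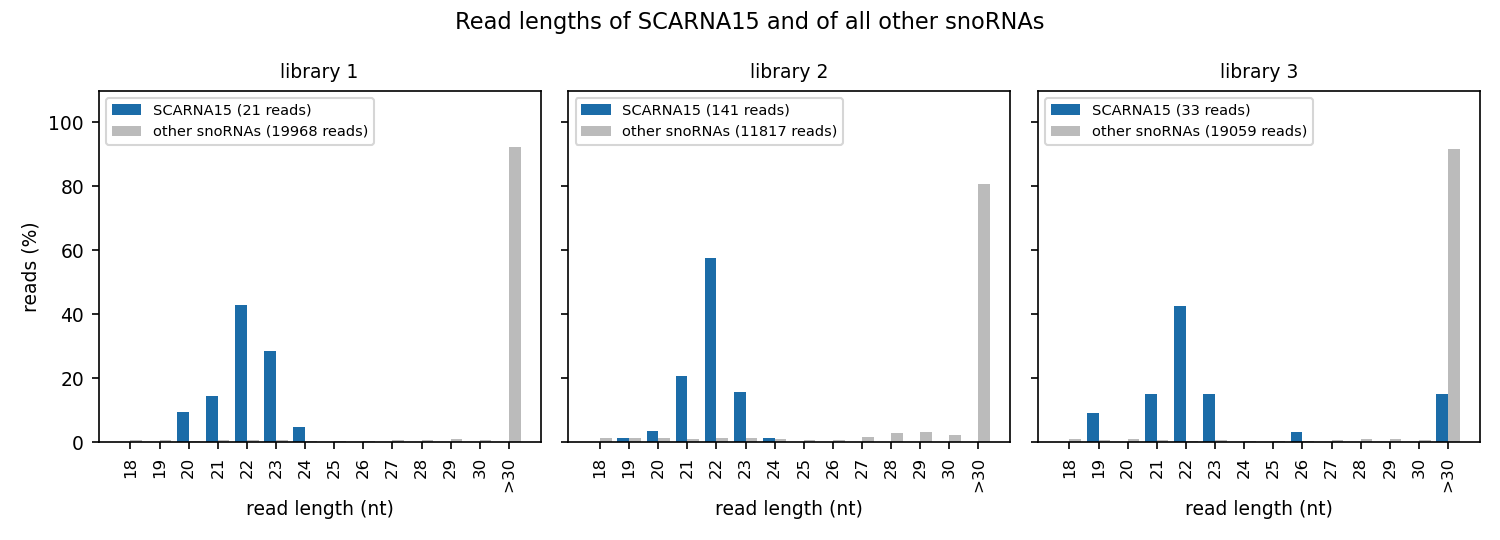
Share of reads (%) at each length (nt) in libraries 1 to 3, for SCARNA15 (blue) and all other snoRNAs (grey). SCARNA15 reads peak at 22 nt in each library, and other reads lie mostly above 30 nt, as do 5 SCARNA15 reads of library 3.

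The ratio of 20 to 24 nt reads to reads of other lengths was compared over the 125 snoRNAs, SCARNA15 among them, that reached 10 counts in each of the 3 libraries, with edgeR's quasi-likelihood test, library as a block and TMM factors, so that 0 stands for the typical snoRNA. SCARNA15 had 21, 139 and 24 reads of 20 to 24 nt and 0, 2 and 9 of other lengths. Its log2 ratio was 8.55 ± 1.25 (SE, n = 3), the highest of the 125, with an edgeR adjusted p of 2.26e-09 and this direction in 3 of 3 libraries. The SE here is approximate, the log2 ratio divided by the square root of the F statistic of the test. In this direction 7 of 125 snoRNAs passed the threshold of 0.05, a background of 5.6%, and 6 passed in the other direction (4.8%). SNORA22, an H/ACA RNA of the nucleolus, had 8.08 ± 0.90 (edgeR adjusted p = 9.14e-15), within 1 SE of SCARNA15, and whether they differ was not tested. SNORD14A (U14, a box C/D RNA of pre-rRNA processing) had 5.14 ± 0.65 and the U3 entry 3.95 ± 0.66. SCARNA15 passed the filter through its 20 to 24 nt reads, the class in which it is high. Its place among the 125 thus depends on that filter, and its adjusted p is not independent support for the excess. It was also chosen with earlier results of these data known, so the p-values, with and without the filter, only describe the ratio. The filter left out SNORA36B (6 reads in library 1), whose reads were 100%, 91.2% and 76.5% of this size in libraries 1, 2 and 3. SCARNA16 (7 and 4 reads in libraries 2 and 3) and SCARNA3 (1, 8 and 9 reads) were left out as well. Without the filter, over 259 snoRNAs, the log2 ratio was 8.08 (edgeR adjusted p = 1.27e-15). The SCARNA15 ratio rests on 11 reads of other lengths, 9 of them in library 3. It was 10.5 without library 3, 7.59 without library 2 and 8.10 without library 1, with edgeR adjusted p of 1.28e-08, 6.88e-13 and 0.0144.

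**Figure D4:**
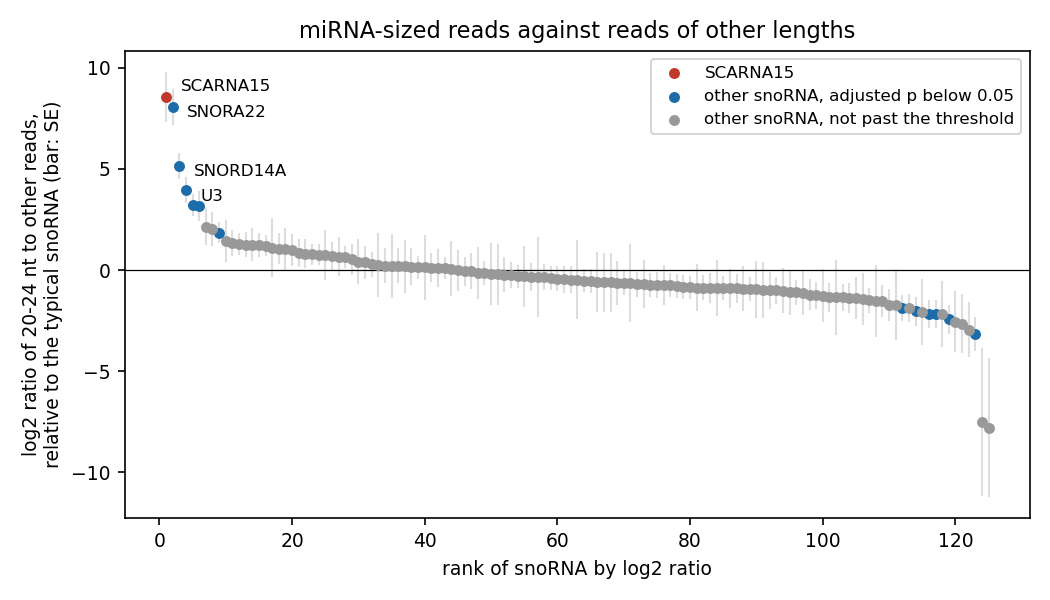
edgeR log2 ratio of 20 to 24 nt reads to reads of other lengths, relative to the typical snoRNA (points, bars are the approximate SE). The 125 snoRNAs with at least 10 counts in each library are in order of the ratio. SCARNA15 (red) is highest at 8.55, next to SNORA22 at 8.08.

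The places of the SCARNA15 fragments were set beside those of other snoRNAs rich in short reads. The leading 20 to 24 nt fragment of SNORA22 ran from 115 to 134 (chr7:65755640-65755659, plus strand), its 3′ end, with 107 of 111 such reads, and SNORA22 had no second fragment clear of the first. SNORA36B, another H/ACA RNA, led with 106 to 128 (chr1:220200549-220200571, minus strand, 23 of 50 reads) and likewise had no other place. SNORD14A led with 68 to 90 (chr11:17074655-17074677, minus strand, 63 of 75 reads) and had 1 read of 20 to 24 nt elsewhere at its next place, 22 to 44. These fragments are given for comparison, again with bases 2 to 8 in capitals.
SNORA22 115-134: uUCAGAAAgccagcacauua
SNORA36B 106-128: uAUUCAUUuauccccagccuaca
SNORD14A 68-90: gUUCUUCCuuggaugucugagug
Of 190 snoRNAs with any 20 to 24 nt read, 11 had a leading fragment of at least 10 reads. Only these had the reads for a second fragment of that size. Among the 11, 2 had a second fragment of at least 10 reads that did not overlap the leading one. They were SCARNA15, with 17 reads beside a lead of 84, and U3, with 11 beside a lead of 18. Of the 17 reads 14 came from library 2. Without that library 0 snoRNAs had a second fragment of at least 10 reads, and SCARNA15 and U3 had 6 each. SNORA22, SNORA36B and SNORD14A have further gene copies of their families, so the copy that their reads came from is uncertain. No test of this difference was made.

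End precision was compared over the 22 snoRNAs with at least 20 reads of 20 to 24 nt. With its arms pooled SCARNA15 had 104 of 184 such reads at its commonest first position (56.5%, rank 10) against a median of 48.1% in the other 21, and 120 of 184 at its commonest last position (65.2%, rank 6) against 42.3%. The difference in first position depended on the libraries used, and was -3.49 percentage points without library 2 and -1.92 without library 3. SNORA22, with a single place, had 96.4% and 100%. U3 had 22.5% and 28.1%. SCARNA15 reads are split between arms, which lowers its values on this measure, since by arm 70.3% and 97.6% of pooled reads began at the commonest first position on the 5′ and 3′ arm.

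Among the other scaRNAs, 9 had at least 10 reads over the libraries. Their 20 to 24 nt reads ranged from 0% of SCARNA6 (0 of 19 reads) to 55.6% of SCARNA3 (10 of 18 reads). SCARNA15 had 184 of 195 reads at this size, and SCARNA9, the next most abundant scaRNA, had 8 of 166. SCARNA16 had 16 of 51 (7 of 40, 7 of 7 and 2 of 4 by library) and SCARNA18 had 4 of 11. By read length profile, the share of reads at each length from 18 to 30 nt and above, averaged over 3 libraries, the snoRNAs nearest to SCARNA15 of 165 with at least 30 reads were SCARNA16, U3 and SNORA36B, with Euclidean distances of 0.357, 0.569 and 0.589. The distance of SCARNA16 rests on 7 and 4 reads in libraries 2 and 3.

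The level of SCARNA15 varied widely between libraries. It took 0.105%, 1.18% and 0.173% of all counts, with exact 95% intervals of 0.0650% to 0.161%, 0.993% to 1.39% and 0.119% to 0.243%. Library 2 stood apart, and the intervals of libraries 1 and 3 overlapped. The mean was 0.486% ± 0.60 (SD, n = 3) and 0.139% without library 2. By count SCARNA15 ranked 131 of 240, 23 of 223 and 119 of 248 snoRNAs with reads. Library 2 was also richer in short reads, and when 20 to 24 nt reads alone were counted, SCARNA15 took 3.95%, 17.9% and 4.07% of them and ranked 2 of 137, 1 of 139 and 4 of 135. The excess of library 2 was thus smaller on that basis, with the highest library 4.53-fold above the lowest, against 11.2-fold over all lengths. The mean of these shares was 8.63% ± 8.0 (SD, n = 3), and 4.01% without library 2.

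SNORA22 and SNORA36B also had their lowest share of 20 to 24 nt reads in library 1, with 2.26%, 6.69% and 7.97% for SNORA22 and 1.13%, 3.99% and 2.20% for SNORA36B. SNORD14A had its lowest in library 2, with 2.82%, 1.29% and 8.47%. U3 varied least of these, with 4.14%, 5.92% and 3.56%. The highest share was 3.53-fold the lowest in SNORA22, 3.54-fold in SNORA36B, 6.58-fold in SNORD14A and 1.66-fold in U3. Over all lengths the highest share of counts was 6.02-fold the lowest in SNORA22, 9.47-fold in SNORA36B, 3.21-fold in SNORD14A and 1.91-fold in U3. The part that the shorter reads of library 2 play in the SCARNA15 level was not tested.

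**Figure D5:**
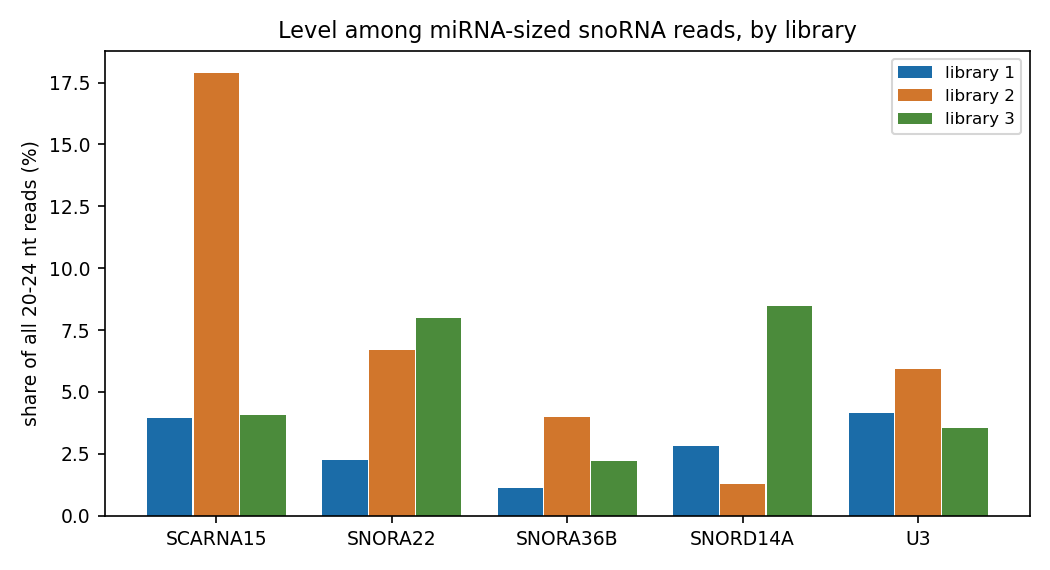
Share of all 20 to 24 nt snoRNA reads (%) taken by SCARNA15 and by 4 other snoRNAs in libraries 1 to 3 (bars, 1 value each). SCARNA15 reaches 17.9% in library 2 and about 4% in libraries 1 and 3.

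A second deposited table places SCARNA15 beside miRNAs in library 1. It lists SCARNA15 with 21 counts, the number found on its entry, together with 137 miRNAs of 11 to 11171 counts and a median of 91. Of these miRNAs 115 had more counts than SCARNA15, 21 had fewer and 1 had the same number. With its 5′ arm taken alone (14 reads), 3 listed miRNAs had fewer. SCARNA15 was 1 of 2 scaRNAs in that table. Since no listed miRNA had under 11 counts, any rarer miRNAs are missing from the numbers with fewer counts. Library 1 also had the lowest SCARNA15 share of snoRNA counts, 0.105% against 1.18% and 0.173% in libraries 2 and 3.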

How the data were processed

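Small RNA of HEK293 cells was ligated to adapters and sequenced in 3 libraries prepared by an Ion Total RNA-Seq kit, per the labels' protocols. The deposited files hold raw counts per record, per the file headers, and build GRCh38.p10 is named in the submitters' processing notes. Aligner, trimming and read filters: not given in the sources used here. A deposited table sets miRNA beside snoRNA counts, and 2 of its columns, whose names match no sample, were left out.

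The members, comparators and tests were chosen with earlier results of these data known. Of 260 entries 246 matched a symbol in a RefSeq gene table (GRCh38.p14, names only). The arms are the 2 most abundant non-overlapping fragments of 20 to 24 nt. Intervals are exact (Clopper-Pearson) at 95%, and floors are 3 counts. Both cover counting error only, since PCR copies were not told apart by molecular identifiers. Positions count from 1 at the 5′ end of the RNA. Library pairs differed beyond sampling noise (chi-square per degree of freedom 10.4 to 13.3).

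edgeR 4.0.16 (R 4.3.3) was checked on simulated counts of 125 snoRNAs, where it recovered 1 of 10 4-fold and 10 of 10 16-fold differences with 0 false calls among 11. The simulation gave every snoRNA the same assumed spread, unchanged snoRNAs a common share of short reads, and changes upward only. Recovery of downward changes was thus not checked, and the 0 false calls may not carry over to the spread of these libraries. DESeq2 1.42.0 was an alternative. Named snoRNAs were the other scaRNAs with at least 10 reads, SNORA22, SNORA36B, SNORD14A and U3, the 3 nearest by length profile, and SCARNA15 fragments with at least 3 reads. Python 3.11.15, NumPy 2.4.6, pandas 2.3.3, SciPy 1.17.1, matplotlib 3.10.9 and RNAfold (ViennaRNA 2.7.2) were used.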

Additional observations from a re-analysis of the deposited data

How the results depend on the processing

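The SCARNA15 log2 ratio of 20 to 24 nt to other reads ranged from 7.59 to 10.5 over 9 alternatives, with adjusted p between 1.01e-25 (DESeq2) and 0.0144 (edgeR without library 1). These p-values too only describe the ratio, since SCARNA15 was chosen with earlier results of these data known. Of 110 alternative values over 17 results, 3 turned. Another 13, of results with no test, moved by more than the spread between libraries or, for counts and ranks, by over 1.5 times. The other 94 include tested differences, judged by direction and threshold alone, and some of the 94 shifted much. With each record counted once, the arm log2 ratio was 0.45 (exact sign-flip p = 0.5) and the share outside the arms 11.8%. That share was 3.33% without reads whose length and span differ, and the share of counts was 0.139% without library 2. When positions within 1 nt counted as precise, the 5′ arm means became 99.4% (first) and 97.3% (last), the 3′ arm last position 74.1%, loop side minus base side 6.0 percentage points, and first minus last on the 5′ arm turned to 2.09 percentage points (exact sign-flip p = 1). The SCARNA15 share is 8.63% of 20 to 24 nt reads and 28.7% of scaRNA reads (16.4% without library 2), by construction of the denominators. Its excess in first position over other snoRNAs (8.37 percentage points) lay between -3.49 and 4.07 with a library left out, and was 22.9 for last positions. With 18 to 25 nt, 12 snoRNAs passed the higher threshold in place of 7. With a library left out, 0 to 3 passed the lower one in place of 6. The 0, without library 2, stands beside 6 at an unadjusted p under 0.05 in edgeR and 0 in DESeq2. The cause of these changes was not tested. No paired analysis was possible because there is 1 group, and the comparisons of arms, ends and lengths already pair values within each library. With 21 and 33 reads, libraries 1 and 3 limit what can be said of single positions.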

Other observations

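These values were picked with the data in view. In 3 other scaRNAs the 2 leading 20 to 24 nt fragments also lay 17 to 20 nt apart. These RNAs were not folded, and in SCARNA16 and SCARNA18 the second fragment is a single read. SCARNA3 had 4 reads at 82 to 102 and 3 at 120 to 141, with 17 nt between them, the same distance as in SCARNA15. SCARNA16 had 3 reads at 122 to 143 and 1 at 163 to 184, with 19 nt between, and SCARNA18 had 2 at 113 to 134 and 1 at 70 to 92, with 20 nt between. In SCARNA1 and SCARNA9 the fragments lay 124 and 109 nt apart, with 1 to 3 reads each.

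Bases 2 to 7 of the leading SCARNA15 fragment, AGGUAG, stand 1 base further in, at bases 3 to 8, in 11 mature human miRNAs of RefSeq, among them the let-7 family. In hsa-let-7a-5p, with the shared bases in capitals, the sequence is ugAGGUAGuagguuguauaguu. In the deposited table SCARNA15 had 21 counts and hsa-let-7a-5p had 708 in library 1. The 21 counts cover both arms and every start, and 10 reads of library 1 began at position 65. Whether the fragment pairs with let-7 targets was not tested.

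SCARNA15 reads with equal length and ends were in part split over several records in libraries 2 and 3. Records other than the largest held 0 of 21, 19 of 141 and 5 of 33 reads in libraries 1, 2 and 3. The files do not give the letters that set such records apart.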
